A study of Mus musculus with 8 samples.

Results

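The collagen genes of cells labelled C2C12 were followed across 8 RNA sequencing libraries. C2C12 is an immortalised line of mouse myoblasts, the precursors that fuse into muscle fibres, and all 8 samples are labelled wild type. In one table, 3 libraries came from cells given ginsenoside Re, a saponin of ginseng, and 3 from cells given DMSO, the solvent. In the other, 1 library came from cells given ginseng berries concentrate (GBC) and 1 from cells given DMSO. The sources used here give no doses or treatment times, and do not say whether the replicates were separate cultures, so p-values measure only the spread between these libraries. Members were all genes whose symbol has the form Col, a type number, a and a chain number. There were 44 of them, out of 52338 genes listed in the Re table and 52139 in the GBC table. By function they fall into 11 fibrillar collagens, 8 basement membrane collagens (6 chains of type IV, and types XV and XVIII) and 25 others.

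Collagens are secreted proteins of 3 chains wound into a triple helix, and each chain has its own gene. Fibrillar collagens line up into the banded fibres that give tissue its strength, while type IV collagen forms the sheet-like network of the basement membrane that surrounds every muscle fibre. The remaining types link fibres to one another, form beaded filaments around cells, anchor basement membranes or span the plasma membrane. Myoblasts and fibroblasts both make collagen, and mutations in type VI collagen genes cause muscular dystrophy.

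Values are TPM (transcript units scaled by gene length and by the library total), back-transformed from the authors' log2(TPM + 1). The depth of each library is unknown. The listed TPM summed to 642180 to 743269 in the Re table, lowest in DMSO replicate 2 and highest in Re replicate 3, and to 479938 in the GBC library against 403442 in its DMSO library. These sums fall short of the 1000000 that TPM adds up to over a whole library, more so in the GBC table. Shares of listed TPM are therefore not shares of the whole library. Markers of myoblasts matched the label in the Re table, where 6 of 7 were at 1 TPM or more in every library and their sum ran from 202.7 to 216 TPM in Re and from 202 to 222 TPM in DMSO. In the GBC table only Des reached 1 TPM, the sum was 1.67 TPM in GBC and 1.98 TPM in DMSO, and the defining genes Myod1, Myf5 and Cdh15 were listed at 0 in both libraries. Pax7 was at 0 in both too, but it was the marker below 1 TPM in the Re table, at most 0.13 TPM there. It therefore does not tell the tables apart. Of 7 fibroblast or mesenchymal markers, 4 were at 1 TPM or more in each library of the GBC table and 3 in each library of the Re table, with sums of 93.8 TPM in GBC and 83.2 TPM in its DMSO library, 29.5 to 35.1 TPM in Re and 29.2 to 31.2 TPM in DMSO. Ly6a was at 58.45 TPM in GBC and 51.52 TPM in its DMSO library, against 11.48 to 16 TPM in the Re table. Thy1 was at 22.11 and 23.75 TPM in that pair, against at most 0.08 TPM, and Pdgfra was also higher there. Pdgfrb went the other way, at 3.26 TPM in GBC and 1.78 TPM in DMSO, against 13.37 to 16.15 TPM. Dpt, Lum and Dcn stayed below 1 TPM in all 8 libraries. The GBC table is therefore described as libraries labelled C2C12. In bulk RNA, fewer cells of a type and less RNA per cell cannot be told apart.

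In these cells 22 of the 44 collagen genes averaged 1 TPM or more in at least 1 table. Of these, 16 did so in both tables, 2 in the Re table alone (Col5a3 and Col7a1), 4 in the GBC table alone (Col4a6, Col27a1, Col9a3 and Col20a1) and the other 22 stayed below it in both. In the Re table the order of mean level over the 6 libraries began with Col4a1 at 236 TPM, Col3a1 at 235 TPM, Col1a2 at 226 TPM and Col5a2 at 197 TPM. The order of Col4a1, Col3a1 and Col1a2 changed from library to library, so they do not form separate ranks. Col5a2 came after them in each of the 6 libraries. Then came Col4a2 at 103 TPM, Col5a1 at 96.6 TPM, Col18a1 at 88.0 TPM and Col6a3 at 73.2 TPM, whose order also changed between libraries. Col7a1, Col12a1, Col8a1, Col1a1 and Col16a1 lay between 10.4 and 29.8 TPM, and Col4a5, Col6a1, Col5a3, Col6a2 and Col10a1 between 1.07 and 7.69 TPM.

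**Figure D1:**
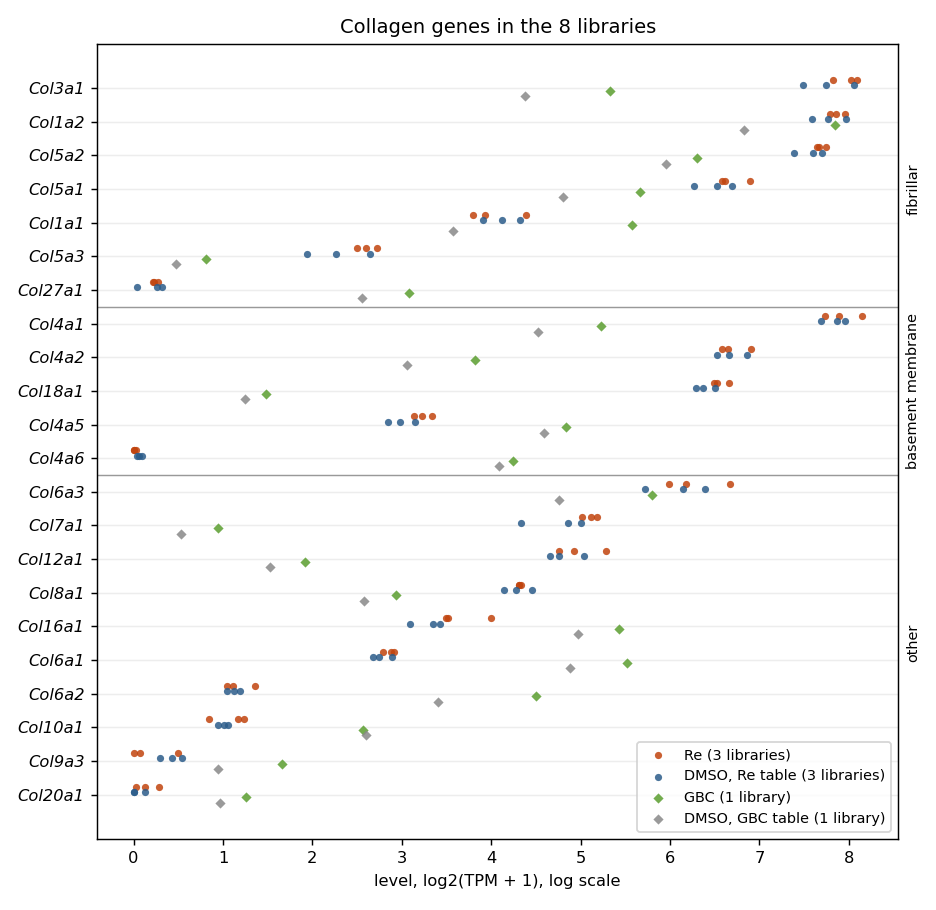
Level of each collagen gene averaging 1 TPM or more in either table, on the log2(TPM + 1) scale, with 1 point per library and genes grouped as fibrillar, basement membrane and other. Re and DMSO points of the Re table overlap for most genes, while some genes lie far higher in the GBC table, such as Col4a6 at 17.95 TPM in GBC and 15.98 TPM in its DMSO library, against at most 0.07 TPM in the Re table.

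The genes that stayed low include some collagens of cartilage, such as Col2a1, and the kidney filter chains Col4a3 and Col4a4. Among fibrillar collagens, the highest of the 8 values was 0.84 TPM for Col11a2, 0.5 TPM for Col11a1, 0.43 TPM for Col2a1 and 0.09 TPM for Col24a1. Among basement membrane collagens it was 0.14 TPM for Col4a3, 0.06 TPM for Col4a4 and 0.11 TPM for Col15a1, which was listed at 0 in 6 libraries. Among the others, the transmembrane collagen gene Col17a1 reached 1.31 TPM in the GBC library only, and Col22a1 reached 0.5 TPM. The type VI chains Col6a4, Col6a5 and Col6a6 reached 0.14, 0.01 and 0.04 TPM. For Col28a1, Col9a1, Col23a1, Col8a2, Col14a1, Col9a2 and Col25a1 the highest value was between 0.01 and 0.21 TPM. Col13a1, a collagen of the neuromuscular junction, Col19a1 and Col26a1 were listed at 0 in all 8 libraries.

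Sequences at the start sites are shown for genes whose levels are compared in pairs below, since the pairs differ in how their genes lie. They lie just upstream of the start or, for Col4a1 and Col4a2, across both starts. Windows from RefSeq, on build GRCm38.p6, run from 250 bases before to 50 bases after each gene start and were found for 35 of the 44 genes. The deposited tables carry no coordinates, and the submitters' processing notes name another mouse build. Capitals mark every match, on either strand, of 4 motifs. These are the TATA box, written TATAAA, the CCAAT box by its own letters, a GC box, written GGGCGG, and the pyrimidine-rich CCCTCCC. Matches can overlap, as CCCTCCC on the reverse strand does with GGGCGG in Col1a2.
Col1a2, chr6:4505368-4505617, plus strand, 250 bases upstream: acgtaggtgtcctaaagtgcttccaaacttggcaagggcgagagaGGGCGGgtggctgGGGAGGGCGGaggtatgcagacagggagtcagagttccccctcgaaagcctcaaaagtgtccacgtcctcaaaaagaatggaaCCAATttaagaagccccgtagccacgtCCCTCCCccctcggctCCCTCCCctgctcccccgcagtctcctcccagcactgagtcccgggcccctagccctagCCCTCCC
Col3a1, chr1:45311288-45311537, plus strand, 250 bases upstream: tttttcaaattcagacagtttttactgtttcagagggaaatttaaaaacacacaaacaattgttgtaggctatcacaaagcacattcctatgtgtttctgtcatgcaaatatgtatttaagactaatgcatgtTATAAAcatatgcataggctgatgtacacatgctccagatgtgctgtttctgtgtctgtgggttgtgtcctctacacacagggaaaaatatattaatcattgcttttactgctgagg
Col4a1 and Col4a2, stretch shared by both windows, chr8:11312777-11312854, plus strand: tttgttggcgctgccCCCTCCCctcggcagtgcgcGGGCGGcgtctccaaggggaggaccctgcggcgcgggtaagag
Col4a5, chrX:141475169-141475418, plus strand, 250 bases upstream: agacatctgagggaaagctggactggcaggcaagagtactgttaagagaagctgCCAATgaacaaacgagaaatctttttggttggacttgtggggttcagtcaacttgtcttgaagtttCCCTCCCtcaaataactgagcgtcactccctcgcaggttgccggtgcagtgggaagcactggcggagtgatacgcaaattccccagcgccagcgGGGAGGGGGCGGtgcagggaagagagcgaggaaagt
Col4a6, chrX:141474077-141474326, minus strand, 250 bases upstream: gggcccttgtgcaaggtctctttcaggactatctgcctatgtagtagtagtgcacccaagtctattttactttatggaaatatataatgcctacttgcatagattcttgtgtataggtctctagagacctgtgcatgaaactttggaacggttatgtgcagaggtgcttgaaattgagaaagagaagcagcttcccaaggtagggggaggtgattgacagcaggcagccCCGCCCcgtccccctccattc

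The Col1a2 stretch held 4 matches of CCCTCCC, 2 of GGGCGG and 1 of CCAAT, and the Col3a1 stretch held 1 TATAAA and none of the other 3 motifs. Over all 32851 windows, the upstream 250 bases held TATAAA in 12.4%, CCAAT in 33.8%, GGGCGG in 32.7% and CCCTCCC in 19.7%. Col4a1, on the minus strand, and Col4a2, on the plus strand, have starts 21 bases apart, and each start lies inside the other gene. A single stretch of 78 bases lies in both windows, with 1 CCCTCCC and 1 GGGCGG. It reaches past both starts, and its GGGCGG lies between them, inside both genes. In the same 78 positions of all windows CCCTCCC was present in 5.98% and GGGCGG in 16.2%. Col4a5 and Col4a6 are transcribed away from each other, from starts 1343 bases apart, and their upstream stretches do not overlap. Over whole windows, GGGCGG was present in 60.5% of 38 collagen windows and in 35.7% of all windows, and CCCTCCC in 50% and 22%. These matches describe the letters only and were not tested as binding sites.

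The question asked of the Re table was whether ginsenoside Re changes collagen transcript levels in myoblasts. No collagen gene passed the test. Of the 18 genes averaging 1 TPM or more over the 6 libraries, 0 had an adjusted p under 0.05 in limma, where the smallest was 0.687, and 0 had an unadjusted p under 0.05. Over all 11967 genes tested, 0% were called. At an unadjusted p under 0.05, 5.65% of all genes were higher and 0.577% lower. Differences are Re minus DMSO in log2(TPM + 1), a scale that compresses fold changes at low levels. They were above 0 for 17 of the 18 collagens, and for 77.5% of all genes. The median over the 18 collagens was 0.15, beside 0.11 for all genes tested. Median-of-ratios scaling sets the typical gene to the same level in each library of a table. It takes that from all genes above 0 in every library, whatever their mean. After this scaling the median of all genes was 0.00 and that of the collagens 0.04. Of the 18 collagens 11 lay above 0, against 50.1% of all genes. The groups did not overlap, with Re higher, for Col7a1 and Col16a1 only, or 2 of 18, and for 13.7% of all genes. After scaling they did so for 0 of the 18, and for 5.23% of all genes.

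Ranges in parentheses after a difference are 95% confidence intervals. Fibrillar collagens were the most abundant class. Their mean sums differed by less than the SD of the DMSO libraries, but by more than that of the Re libraries. Their summed level was 797, 829.7 and 819.5 TPM in the Re libraries, against 851, 629 and 735 TPM in the DMSO libraries. The 3 Re values sit close together, inside the range of the 3 DMSO values. Col3a1, the single chain of type III collagen of elastic tissues, was at 260.2, 271 and 225 TPM in Re, against 266, 178 and 213 TPM in DMSO. The groups overlap, and the difference was 0.22 with a 95% confidence interval of -0.13 to 0.56. Col1a2, which encodes alpha 2 of type I collagen, had 219.9, 231 and 248 TPM in Re, against 249.7, 191 and 216 TPM in DMSO. Its highest value was in a DMSO library, and the difference of 0.10 had an interval of -0.16 to 0.36. Col5a2, of the type V collagen that seeds type I fibres, was at 199, 213 and 202 TPM in Re, against 207, 166 and 193 TPM in DMSO, and differed by 0.12 (-0.11 to 0.35).

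The other fibrillar genes tested were Col5a1, Col5a3 and Col1a1. Col5a1, a further type V chain, ran from 94.7 to 118 TPM in Re and from 76.3 to 102 TPM in DMSO, a difference of 0.20. Col5a3, the least abundant type V chain, was at 4.64, 5.04 and 5.61 TPM in Re, against 5.25, 2.85 and 3.80 TPM in DMSO, and differed by 0.32 (-0.12 to 0.76). DMSO replicate 1 lies among the Re values. Col1a1, which encodes alpha 1 of type I collagen, had 14.3, 12.9 and 20.03 TPM in Re, against 18.96, 14.01 and 16.4 TPM in DMSO. It was the single tested collagen below 0, at -0.07, with an interval of -0.48 to 0.33, and Re held both its highest and its lowest library.

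Basement membrane collagens did not separate the groups either. Their summed level was 408, 429.6 and 509 TPM in Re, against 446, 379.7 and 436 TPM in DMSO. Col4a1 was at 212, 235 and 282 TPM in Re, against 233, 205 and 247 TPM in DMSO, and differed by 0.08 (-0.20 to 0.37). Its trimer partner Col4a2 was at 99.1, 94.5 and 119 TPM in Re, against 115, 91.3 and 99.9 TPM in DMSO, and differed by 0.03 (-0.26 to 0.31). Both were highest in Re replicate 3 and lowest in DMSO replicate 2, the libraries with the highest and the lowest listed TPM, and both differences lay below 0 after scaling, at -0.03 and -0.09. Col18a1, a proteoglycan-type collagen whose end fragment is endostatin, was at 88.65, 90.8 and 100.1 TPM in Re, against 89.9, 77.4 and 81.3 TPM in DMSO, and differed by 0.17 (-0.05 to 0.38). Col4a5, mutated in Alport syndrome, was at 8.38, 9.08 and 7.77 TPM in Re, against 7.87, 6.20 and 6.86 TPM in DMSO. The groups overlap in 1 library each, and the difference was 0.24 (-0.05 to 0.53).

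Among the remaining collagens, Col16a1 and Col7a1 had the smallest p-values of the family. Col16a1, a fibril-associated collagen, was at 10.2, 10.5 and 14.98 TPM in Re, against 9.78, 9.15 and 7.54 TPM in DMSO. All Re values lie above all DMSO values, and Re replicate 3 stands above the other two. The difference was 0.38, with an interval of -0.005 to 0.77, an unadjusted p of 0.0524 and an adjusted p of 0.687 in limma. Col7a1, the anchoring fibril collagen, was at 35.5, 31.22 and 33.7 TPM in Re, against 31.16, 19.2 and 28.0 TPM in DMSO. Re replicate 2 and DMSO replicate 1 are nearly equal, and DMSO replicate 2 is the low library. The difference was 0.37 with an interval of -0.02 to 0.76 and an adjusted p of 0.687 in limma. Col6a3, the large chain of type VI collagen, was at 71.1, 62.5 and 100.8 TPM in Re, against 83.2, 51.9 and 69.8 TPM in DMSO, and differed by 0.19 (-0.30 to 0.68). Its highest and lowest libraries were again Re replicate 3 and DMSO replicate 2. Col12a1, which decorates type I fibres, was at 29.3, 26.14 and 37.8 TPM in Re, against 31.9, 24.3 and 26.11 TPM in DMSO, a difference of 0.17. Col8a1, Col6a1, Col6a2 and Col10a1 differed by 0.03 to 0.09, and the summed level of the class was 174, 159 and 216 TPM in Re, against 185, 131 and 157 TPM in DMSO.

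**Figure D2:**
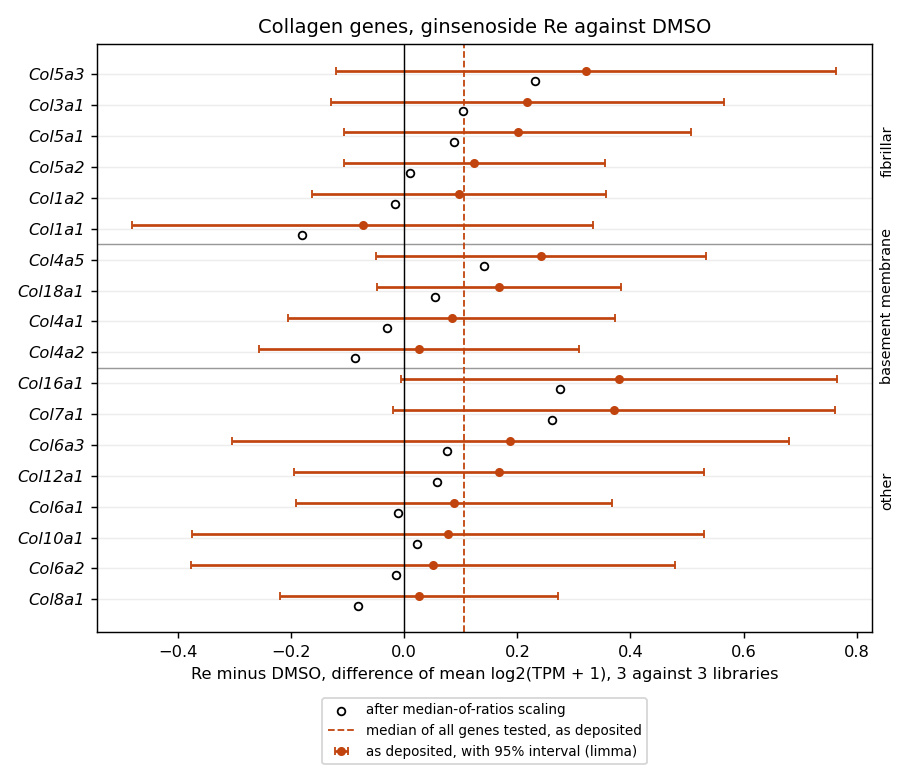
Difference between Re and DMSO in mean log2(TPM + 1) for the 18 collagen genes tested (3 libraries each). Filled points with bars are deposited values with the 95% confidence interval of limma, open points are values after median-of-ratios scaling, and the dashed line is the median of all genes tested, 0.11. Every interval includes 0.

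Precision limits these statements. The 95% interval reached 0.22 to 0.49 to either side of the difference, with a median of 0.33, and a gene's range over the 3 DMSO libraries was 0.12 to 0.70. DMSO replicate 2 was the lowest of the 6 libraries for 13 of the 18 collagens and for 51% of all genes tested, or for 7 of 18 and 22.4% after scaling. Re replicate 3 was the highest for 10 of 18 and for 36.7% of all genes, or for 8 of 18 and 15.5% after scaling. These libraries were picked for their low or high values, so leaving them out was bound to lower the differences and is no test. The median over the collagens was 0.06 without DMSO replicate 2 and 0.09 without Re replicate 3. In either case 0 collagens were called. The median of all genes fell as well, and the collagen lead over it was 0.008 and 0.009, against 0.04 with all libraries. Without DMSO replicate 1 the collagen median was 0.21 and this lead 0.07. Single genes moved further. Without DMSO replicate 2 the difference was 0.17 for Col7a1, 0.08 for Col3a1, 0.04 for Col5a2 and 0.0030 for Col1a2. Without Re replicate 3 it was 0.22 for Col16a1 and 0.02 for Col12a1. Without DMSO replicate 1, on the other side, it was 0.37 for Col3a1, 0.28 for Col12a1, 0.196 for Col1a2 and 0.19 for Col5a2, and without Re replicate 2 it was 0.28 for Col12a1.

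The question asked of the GBC table was the same for the concentrate, with 1 library on each side and no replicate check. Collagens were among the genes with higher values in the GBC library, and Col1a1 stood furthest out. Of the 20 collagens averaging 1 TPM or more, 19 were higher in GBC, as were 88.8% of all genes. Their median difference, GBC minus DMSO on the log2(TPM + 1) scale, was 0.58, beside 0.32 for all 10989 genes at that mean. After median-of-ratios scaling the medians were 0.15 for the collagens and -0.07 for all genes, with 14 of 20 collagens and 41.7% of all genes above 0. Of the 15 collagens averaging 5 TPM or more, 4 were higher by at least 1 and 0 lower, beside 4.97% of all 6639 genes higher and 0.241% lower. After scaling 1 of 16 was higher by at least 1, beside 1.21% of all genes, and 0 lower, beside 0.501%.

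Fibrillar collagens had the highest median difference of the 3 classes, 0.91 over 6 genes, or 0.45 after scaling. Col1a1 was at 46.6 TPM in GBC, against 10.9 TPM in DMSO, 4.26 times as much, a difference of 1.996 as deposited and 1.55 after scaling. Col1a2 was at 229 TPM in GBC, against 112 TPM in DMSO, a difference of 1.02, or 0.56 after scaling. Col3a1 was at 39.3 TPM in GBC, against 19.8 TPM in DMSO, a difference of 0.96. Col5a1 was at 49.6 TPM in GBC, against 26.98 TPM in DMSO, a difference of 0.85. Its partner chain Col5a2 was at 77.96 TPM in GBC, against 61.1 TPM in DMSO, a difference of 0.35 that was -0.12 after scaling. Col27a1, a fibrillar collagen of the growth plate, was at 7.45 TPM in GBC, against 4.86 TPM in DMSO.

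Besides Col1a1 and Col1a2, the members past a difference of 1 were Col6a2 and Col6a3, which are 2 of the 6 type VI chain genes. Col6a2 was at 21.7 TPM in GBC, against 9.63 TPM in DMSO, a difference of 1.09, and Col6a3 at 54.8 TPM in GBC, against 26.1 TPM in DMSO, a difference of 1.04. After scaling they differed by 0.65 and 0.59. Col6a1, whose product joins both in one trimer, was at 44.9 TPM in GBC, against 28.6 TPM in DMSO, a difference of 0.64. The rest of this class lay between -0.04 for Col10a1, the collagen of hypertrophic cartilage and the single member lower in GBC, and 0.71 for Col9a3. Col16a1, at 41.98 TPM in GBC, against 30.25 TPM in DMSO, differed by 0.46 and by 0.00 after scaling.

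Basement membrane collagens had a median difference of 0.24 over 5 genes, or -0.05 after scaling, and the other collagens 0.46 over 9 genes, or 0.06 after scaling. The order of these classes turned with no filter on low genes, at 0.24 and 0.13, and with type IV alone as the basement membrane class, at 0.47 and 0.46. Col4a1 was at 36.6 TPM in GBC, against 22.1 TPM in DMSO, a difference of 0.70, and Col4a2 at 13.2 TPM in GBC, against 7.32 TPM in DMSO, a difference of 0.77. Col4a5 was at 27.6 TPM in GBC, against 23.1 TPM in DMSO, and Col4a6 at 17.95 TPM in GBC, against 15.98 TPM in DMSO. These 2 differed by 0.24 and 0.16 as deposited and by -0.21 and -0.28 after scaling. Col18a1 was at 1.79 TPM in GBC, against 1.37 TPM in DMSO. The difference between classes has no replicates and was not tested.

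**Figure D3:**
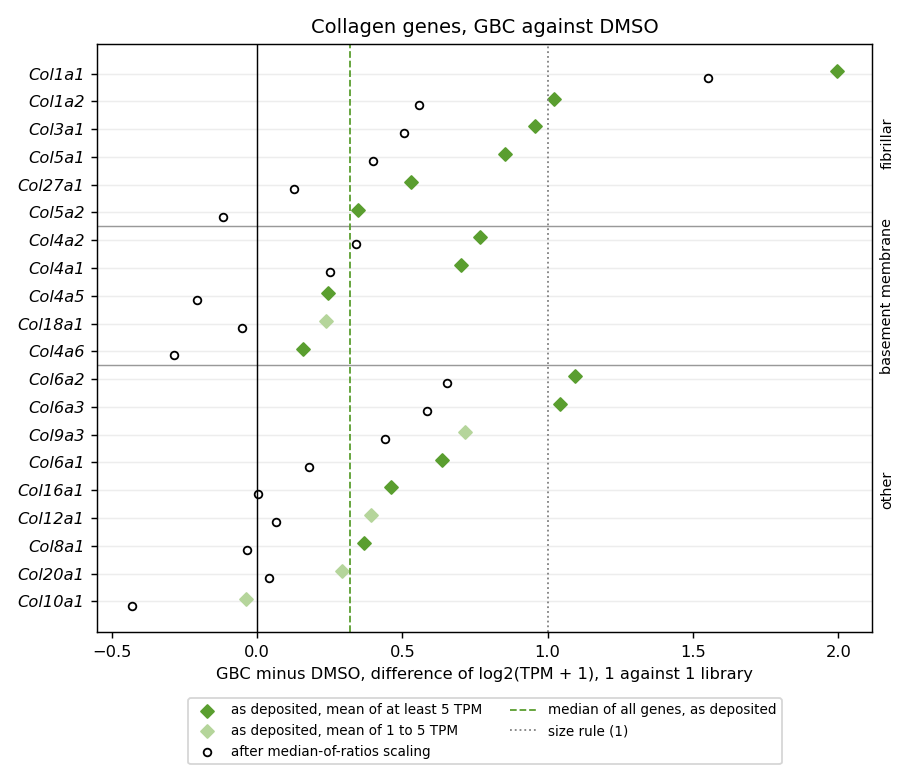
Difference between the GBC and the DMSO library in log2(TPM + 1) for the 20 collagen genes averaging 1 TPM or more in that pair. Diamonds are deposited values, dark where the mean is 5 TPM or more, open points are values after median-of-ratios scaling, the dashed line is the median of all genes, 0.32, and the dotted line marks a difference of 1. Col1a1 lies at 1.996, with Col6a2, Col6a3 and Col1a2 just past 1.

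Collagen transcripts are long, and in this pair longer genes had larger differences. When all genes averaging 1 TPM or more were put in 3 equal bins by exon length, the median difference was 0.20 in the shortest bin, 0.30 in the middle bin and 0.45 in the longest bin. The 20 collagens have exon lengths of 3130 to 15228 bases. Over the 6912 genes within that range the median was 0.37, so that the collagen median lay 0.21 above it, beside 0.26 above that of all genes. Genes in that range are shorter than the collagens, with a median length of 5647 bases against 7648.5 bases. The longest bin, with a median length of 8138 bases, is nearer to them, and the collagen median lay 0.13 above its median. Of the genes in that range averaging 5 TPM or more, 4.93% were higher by at least 1, as were 6.47% of those in the longest bin. Medians on the scaled values were 0.15 for the collagens, -0.02 for genes within their length range and 0.06 for the longest bin. The comparisons by length were added after seeing the data, and whether length accounts for the collagen lead was not tested. The single library on each side does not allow treatment and library to be told apart.

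Chains that share a trimer were not at equal levels, and their ratios, which no scaling of whole libraries changes, are given by table. The Col1a1 to Col1a2 ratio in TPM was 0.0650, 0.0558 and 0.0807 in Re, against 0.0759, 0.0734 and 0.0758 in DMSO. The 3 DMSO values lie inside the range of the Re values. It was 0.204 in GBC, against 0.0975 in DMSO of that table. Type I collagen holds more alpha 1 than alpha 2 chains, while the Col1a2 transcript was the more abundant in every library. The Col5a1 to Col5a2 ratio averaged 0.51 ± 0.07 in Re and 0.48 ± 0.02 in DMSO (SD, n = 3 each), and was 0.64 in GBC, against 0.44 in its DMSO library. The Col4a1 to Col4a2 ratio averaged 2.33 ± 0.18 in Re and 2.25 ± 0.23 in DMSO (SD, n = 3 each), and was 2.78 in GBC, against 3.02 in its DMSO library. Over all 8 libraries the Col4a1 to Col4a2 ratio ran from 2.02 to 3.02, and the Col5a1 to Col5a2 ratio from 0.441 to 0.636. Whether reads over the overlapping starts were assigned by strand is not given in the sources used here.

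**Figure D4:**
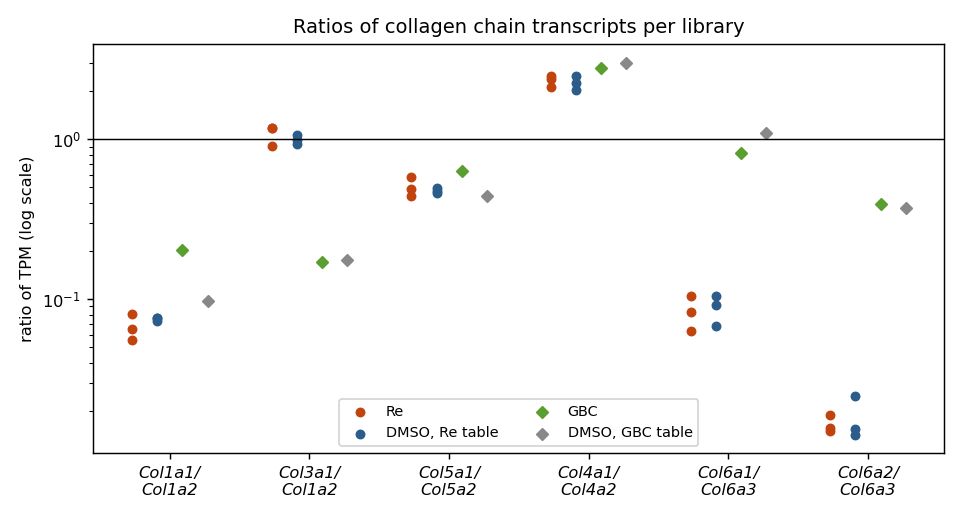
Ratio of TPM between 2 collagen chain genes in each library, on a log scale, with 1 point per library. Re and DMSO points of the Re table overlap in each of the 6 ratios, and the Col6a1 to Col6a3 ratio is 0.0632 to 0.105 there, against 0.819 in GBC and 1.09 in the DMSO library of the other table.

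Other chain pairs had ratios far apart in the Re and GBC tables. The Col6a1 to Col6a3 ratio averaged 0.08 ± 0.02 in Re and 0.09 ± 0.02 in DMSO (SD, n = 3 each), and was 0.819 in GBC, against 1.09 in its DMSO library. Col6a2, which like Col6a1 is needed for the type VI trimer, was at 1.06 to 1.57 TPM in Re and at 1.07 to 1.29 TPM in DMSO. The Col3a1 to Col1a2 ratio averaged 1.09 ± 0.16 in Re and 0.99 ± 0.07 in DMSO (SD, n = 3 each), and was 0.172 in GBC, against 0.176 in its DMSO library. In the neighbouring pair Col4a6 and Col4a5, Col4a6 was at 0.00, 0.02 and 0.00 TPM in Re, against 0.04, 0.07 and 0.03 TPM in DMSO. In the GBC table it was at 0.651 of the Col4a5 level in GBC and at 0.692 of it in DMSO. Col18a1 and Col7a1 went the other way, at 77.4 TPM or more and 19.2 TPM or more in the Re table and at most 1.79 and 0.92 TPM in the GBC table. The 2 tables were treated as normalised separately, and myoblast markers differed between them as given above, so these values describe levels, and the part of cell identity, batch and processing in them was not tested.

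Summed collagen TPM was 1379, 1418 and 1544 in Re, against 1482, 1140.1 and 1328 in DMSO. As a share of all listed TPM this is 0.201% ± 0.006 in Re and 0.191% ± 0.015 in DMSO (SD, n = 3 each). The ranges overlap. In the other table the sum was 733 TPM in GBC, against 417 TPM in DMSO, or 0.153% and 0.103% of the listed TPM. Fibrillar collagens made up 56.5% ± 2.9 of the collagen sum in Re and 55.98% ± 1.2 in DMSO, and 61.6% in GBC, against 56.8% in its DMSO library. Basement membrane collagens made up 30.9% ± 1.8 in Re and 32.1% ± 1.7 in DMSO, and 13.3% in GBC, against 16.8% in its DMSO library. The 5 most abundant genes held 69.6% to 73.7% of the collagen sum in the Re table, and 62.4% in GBC, against 62.2% in DMSO.

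**Figure D5:**
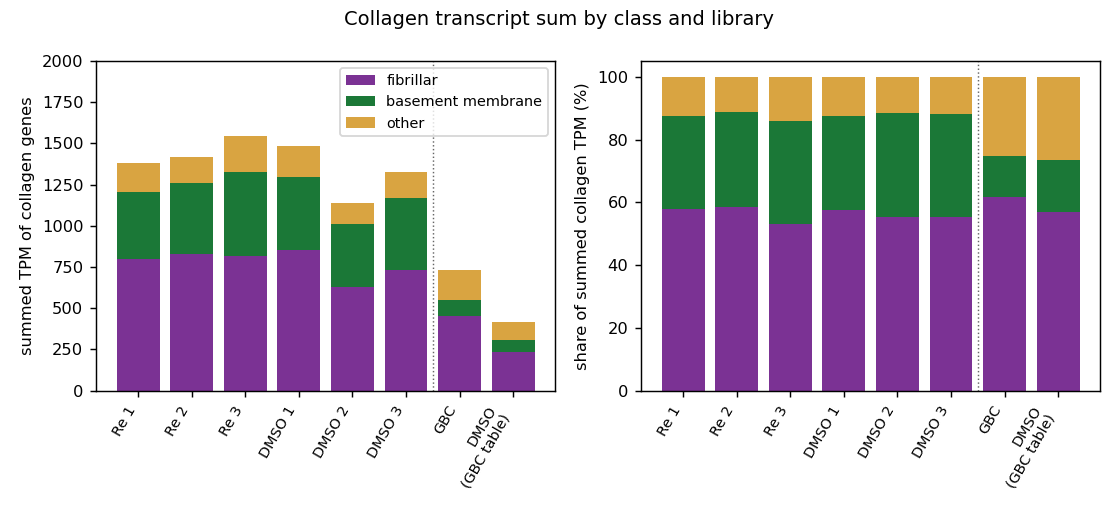
Summed TPM of collagen genes by class in each library (left, bars starting at 0) and the same as a share of the collagen sum (right). Fibrillar collagens are the largest class in all 8 libraries, and the basement membrane share is 29.6% to 33.3% in the Re table, against 13.3% in GBC and 16.8% in its DMSO library.

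The enzymes and chaperones that make collagen were followed beside the collagens in a list of 57 genes, from chain hydroxylation to cross-linking, receptors and fibril-binding proteins. For Re, 43 of them were tested, 0 passed in either direction, 35 were above 0 and the median difference was 0.11, the same as that of all genes. After scaling 21 of the 43 were above 0. The groups did not overlap for 5 with Re higher and for 1 with Re lower, beside 13.7% and 1.27% of all genes. The 4 with the smallest p were Sec23a, P3h4, P4ha1 and Ddr2, each with an adjusted p of 0.687 in limma. Sec23a, of the coat of vesicles that carry procollagen out of the endoplasmic reticulum, was at 27.4, 28.98 and 27.5 TPM in Re, against 23.9, 21.03 and 23.3 TPM in DMSO, a difference of 0.29. P3h4, a partner of lysyl hydroxylase, was at 92.3, 87.2 and 81.3 TPM in Re, against 78.5, 70.3 and 56.4 TPM in DMSO, a difference of 0.35. P4ha1, a catalytic subunit of prolyl 4-hydroxylase, and Ddr2, a receptor kinase for fibrillar collagen, differed by 0.24 and 0.18. In these 4 genes each Re value lay above each DMSO value, and their differences were 0.07 to 0.24 after scaling.

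In the GBC pair, 37 of the 40 genes of this list averaging 1 TPM or more were higher in GBC, beside 88.8% of all genes, with a median of 0.51, or 0.10 after scaling. Of 32 averaging 5 TPM or more, 4 were higher by at least 1 and 0 lower, beside 4.97% and 0.241% of all genes. Thbs2, a matrix glycoprotein that shapes collagen fibrils, was at 51.01 TPM in GBC, against 20.6 TPM in DMSO, a difference of 1.27. Plod3, a lysyl hydroxylase, was at 68.4 TPM in GBC, against 27.99 TPM in DMSO, a difference of 1.26. Fn1, which encodes fibronectin, was at 185 TPM in GBC, against 79.4 TPM in DMSO, a difference of 1.21, and Bgn, the proteoglycan biglycan, at 142 TPM in GBC, against 68.7 TPM in DMSO, a difference of 1.03. After scaling they differed by 0.57 to 0.81. Serpinh1, the collagen chaperone HSP47, was chosen after its values were seen. It was at 144 TPM in GBC, against 133 TPM in DMSO, a difference of 0.12, or -0.35 after scaling.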

How the data were processed

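RNA was measured in 8 libraries. Per the labels' protocols, total RNA was column-extracted and libraries were made with a TruSeq RNA kit. STAR, RSEM and the builds GRCh38 and GRCm39 appear in the submitters' processing notes, which state no version or setting. The authors deposited log2(TPM + 1) per gene. Back-transformed values were multiples of 0.01 TPM within 2e-04 and were rounded to them. TPM keeps no depth, so no count model or counting interval was used.

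The Re and DMSO libraries entered a limma 3.58.1 fit (R 4.3.3, lmFit, eBayes with trend, two-sided) over all genes averaging 1 TPM or more, with Benjamini-Hochberg adjustment and a threshold of 0.05. The step was run on simulated data with planted changes of at least 1 on the log2 scale. Smaller changes, such as the collagen differences for Re, were not simulated. GBC and DMSO, with 1 library each, were described by a difference of at least 1 at a mean of at least 5 TPM. Exon length is the union of exons in GENCODE M21. Python 3.11.15, with pandas 2.3.3, numpy 2.4.6 and matplotlib 3.10.9, served for the descriptions.

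Named genes were the 3 most abundant of each class, the 3 of smallest p in the Re table and the 3 with the largest difference for GBC; other members are given by range or when chosen after their values were seen. Members and lists were chosen with earlier results of these data known. Alternatives were other pseudocounts (0.1 and 0.5), filters, scalings, limma options, each library left out in turn, and the replicate number as a block.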

Additional observations from a re-analysis of the deposited data

How the results depend on the processing

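For Re, 0 collagen genes were called under all 12 other settings and without each of the 6 libraries. Over all genes the count was 0 in all libraries and 0 to 7 without single libraries: leaving out Re replicate 1 gave 3, Re replicate 2 gave 1, Re replicate 3 gave 7, DMSO replicate 1 gave 4, DMSO replicate 2 gave 6 and DMSO replicate 3 gave 0. The collagen median of 0.15 ran from 0.04 to 0.17 over the other settings and from 0.06 to 0.21 without single libraries, and its lead over all genes, 0.04, from 0.01 to 0.07. Without a filter 37 collagens were tested and 26 lay above 0. Small differences changed sign: under median-of-ratios scaling Col4a1, Col4a2 and Col1a2 were at -0.030, -0.087 and -0.017, and the same with the replicate block added. With equal sums of listed TPM Col4a2 was at -0.040. In a further setting mitochondrially encoded genes were left out and the rest rescaled to 1000000 TPM in each library, with 19 collagens tested. There Col4a1 was at -0.0076 and Col4a2 at -0.065. After quantile normalization Col1a2 was at -0.0078 and Col4a2 at -0.064. Without single libraries the ranges were -0.028 to 0.178 for Col4a1, -0.071 to 0.116 for Col4a2 and -0.0084 to 0.342 for Col6a3, each lowest without Re replicate 3; the cause was not tested. The replicate block changed no call, with 0 collagens and 0 genes called. The replicate numbers are those of the sample titles, while the sample descriptions number the Re libraries 4 to 6. Deviations of libraries with the same title number correlated at 0.16, 0.08 and 0.02, so the numbers were not taken as pairs. Not every library correlated best with its own number. For GBC, 4 collagens were past the size rule as deposited. The count was 1, Col1a1, with median-of-ratios scaling, with equal sums, and without mitochondrially encoded genes when rescaled likewise. The collagen median of 0.58 was 0.15, 0.35 and 0.45 under these scalings, 0.70 at a mean of at least 5 TPM and 0.34 with no filter. Its lead over all genes, 0.26, was 0.19 to 0.40 under the other scalings, pseudocounts and filters. Both comparisons by exon length, added after seeing the data, gave 0.21 against genes within the collagens' length range and 0.13 against the longest bin. With type IV alone as the basement membrane class, also added later, the class median was 0.08 for Re and 0.47 for GBC.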
